A study of Mus musculus with 8 samples.

Results

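SR proteins and heterogeneous nuclear ribonucleoproteins (hnRNPs) were followed here through their genes, those whose mouse symbols start with Srsf and a digit or with Hnrnp. The rule found 32 genes, 11 of them Srsf and 21 Hnrnp, among the 27179 entries of the expression table. C2C12 is an immortalized line of mouse myoblasts, and 2 states of it were compared. In GM, cells grew on collagen-coated dishes in high-glucose DMEM with 10% fetal bovine serum and were taken at about 50% confluence. In 3d DM, cells above 90% confluence were kept for 3 days in 2% horse serum, in which myoblasts leave the cell cycle and fuse into myotubes. The labels name no altered allele and no drug in either state. Each state had 2 input libraries of polyadenylated RNA and 2 libraries immunoprecipitated (IP) with an antibody against N6-methyladenosine (m6A). Nothing says that the replicates were separate cultures, so the p-values measure only the spread between these samples, which may be technical.

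SR proteins bind exons through an RNA recognition motif and recruit the splicing machinery through a domain rich in arginine and serine, and they mostly favour the use of the exon they bind. The hnRNPs bind nascent transcripts, often oppose SR proteins at the same exons, and also act in mRNA export, stability and translation. Some hnRNPs have been linked to m6A as well, HNRNPC because the mark opens its binding site and HNRNPA2B1 as a proposed reader. In muscle, the balance of such factors shifts splicing of contractile protein genes as myoblasts become myotubes.

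The m6A methyltransferase acts within the sequence class called DRACH, an A and a C that are preceded by A, G or T and then by A or G and are followed by A, C or T. GGACT, one member of that class, is its best known form. The windows of 29 nt below are read on the transcript strand from the mm10 genome, with the matching 5 bases in capitals. The first 3 are from the regions with the highest mean fold enrichment of IP over input among these genes, and the next is from a region of Hnrnpa0 whose fold differed between the states at an unadjusted p under 0.05. The last 3 show, for genes in which no list held a peak, the GGACT nearest to the end of the coding sequence. Where the single peak line with the highest fold held no GGACT, the DRACH nearest to the centre of that line is shown, although the whole regions of Hnrnpa3 and Srsf4, merged over the lists, each hold 1 GGACT.
Hnrnph3 (chr10:63019425-63019453, minus strand, coding sequence): gtgcgacttcgtGGACTgccatttggttg
Hnrnpa3 (chr2:75662710-75662738, plus strand, coding sequence): aggtggtggaggAAACTttggtcgtggag
Srsf4 (chr4:131900640-131900668, plus strand, coding sequence): cagccgcagcaaGGACAagcggaagggaa
Hnrnpa0 (chr13:58126132-58126160, minus strand, 3′ UTR): atttgaacatgtAAACTgctatgcatagc
Srsf7 (chr17:80201538-80201566, minus strand, end of the coding sequence): tccagaaagaatGGACTgaagttctcaag
Srsf2 (chr11:116853004-116853032, minus strand, 5′ UTR): ccctacccacgaGGACTgtagctaccgag
Srsf3 (chr17:29043159-29043187, plus strand, 3′ UTR): ctaccctgtattGGACTgtaataaacagc
A match of letters is a description and not a mapped m6A site.

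Expression was taken from the input libraries, as values that the authors normalized with edgeR, in which every library sums to nearly the same total. Read numbers are not given, so the depth behind each value is unknown. Values were compared with limma on log2(value + 1) and adjusted with the Benjamini-Hochberg method over all 11406 tested genes, and a gene was called at an adjusted p under 0.05. The states were checked first. Myh3, the embryonic myosin heavy chain, had values of 1068 and 273 in GM (replicates 1 and 2, in this order from here on) against 33485 and 51674 in 3d DM. Ckm, muscle creatine kinase, had 110 and 17.1 in GM against 1740 and 1996 in 3d DM. Myog, the transcription factor of early differentiation, had 1008 and 221 in GM against 5392 and 11502 in 3d DM, and Mki67, a marker of cycling cells, had 3586 and 3659 in GM against 446 and 760 in 3d DM. All 4 had groups that did not overlap, and Myod1, a marker of the myogenic lineage, lay between 1016 and 1713 in the 4 libraries. Of the other muscle markers, Des, Mymk and Tnnt1 were lower in GM. Myf5 went the other way, with 397 and 355 in GM against 58.5 and 121 in 3d DM (log2 fold change 2.14, SE 0.48, limma adjusted p = 0.000118). Within GM, replicate 1 was above replicate 2 in Myh3, Ckm, Myog, Des, Mymk and Tnnt1, so the 2 GM libraries were not alike in these genes. Summed values of the 3 markers of cycling cells were 8996 and 10089 in GM against 1031 and 2001 in 3d DM. They were higher in GM, as most of the splicing genes below were, and their part in those differences was not tested. Of the markers of other cell types, the 3 of adipocytes were at 0 in all 4 libraries, the 3 of endothelial cells summed to between 0 and 1.5, and the 4 of leukocytes to between 9.94 and 27.4. In the osteoblast list, Runx2 passed the filter on low values, with values from 233 to 671, Alpl was at 0, and Sp7 and Bglap did not exceed 8.55. In bulk RNA, fewer cells of a type and less RNA per cell cannot be told apart.

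The SR protein and hnRNP genes were higher in GM as a group. Of the 31 members that passed the filter, 12 were called higher in GM and 0 lower (limma), beside 9.96% of all tested genes called higher and 7.01% called lower. Among the 3673 tested genes with a mean value of at least 500, a level that 29 members reached, 9.50% were called higher. The median log2 fold change of GM over 3d DM was 0.97 over the members and 0.22 over all tested genes, so the members' median lay 0.75 above that shift. The estimate was above 0 for 30 of the 31 members and above the median of all genes for 28. Both GM values were above both 3d DM values in 27 members, where 37.0% of all tested genes had this order. The remaining member, Srsf12, was listed at 0 in all 4 libraries and was not tested.

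The size of the group's difference was followed with each library left out in turn. The median log2 fold change over the members then stayed between 0.62 and 1.37. Calls from these fits were not used to judge the difference, since 1 state held a single library in each. Standard errors of the members lay between 0.40 and 0.57 on the log2 scale whatever the spread of a gene's own replicates, since limma's intensity trend set them. Without the trend 4 members were called, and the share of all tested genes called in that fit was not taken. 3d DM replicate 1 had the lower 3d DM value in 31 of 31 members and in 93.7% of all tested genes. In it, 1 entry without a symbol took 41.3% of the total, against 24.4% and 33.2% in the GM libraries and 25.6% in 3d DM replicate 2. With libraries rescaled by median-of-ratios factors, the median of all genes came to 0.02 and the members' median was 0.77. In that fit 10 members were called higher and 0 lower, beside 11.8% of all genes called higher and 1377 of the 11406 called lower.

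**Figure D1:**
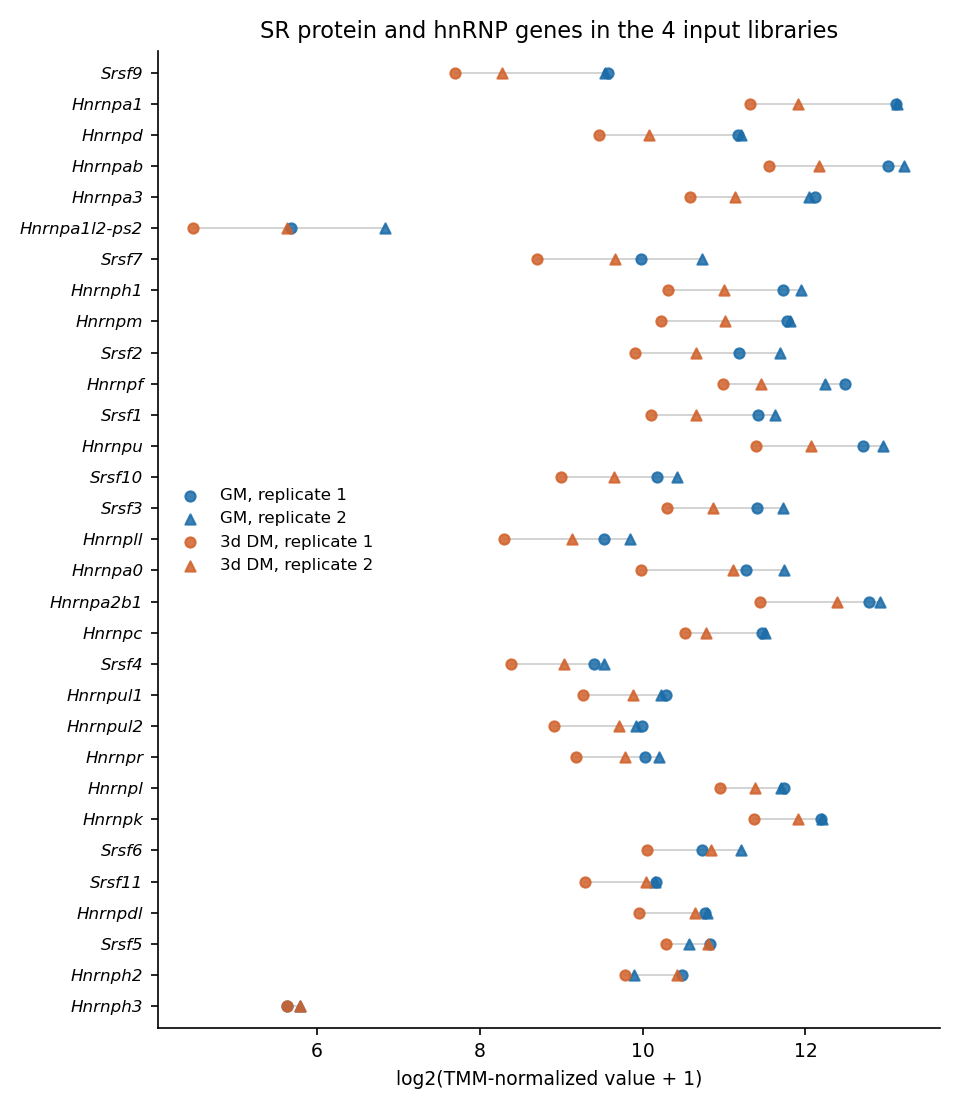
Values of the 31 tested SR protein and hnRNP genes on the log2(value + 1) scale (x axis) in the 2 GM (blue) and 2 3d DM (orange) input libraries, genes ordered by the log2 fold change. Blue points lie to the right of both orange points in 27 genes, and at the bottom Hnrnph3 has GM and 3d DM points on top of each other.

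Among the Srsf genes, 4 of 10 tested members were called higher in GM, with a median log2 fold change of 0.98. Srsf9, an SR protein with a short arginine-serine domain, had the largest difference of all members. Its values were 762 and 744 in GM against 206 and 307 in 3d DM, which is 753 ± 13.1 against 256 ± 70.7 (SD, n = 2), a 2.94-fold difference (log2 fold change 1.58, SE 0.45, limma adjusted p = 0.00404). Srsf7, which also serves in mRNA export, had 1007 and 1703 in GM against 416 and 805 in 3d DM (log2 fold change 1.18, SE 0.43, limma adjusted p = 0.0395). Srsf2, which binds exonic enhancers and resides in nuclear speckles, had 2321 and 3290 in GM against 956 and 1613 in 3d DM (1.15, SE 0.42, limma adjusted p = 0.0365). Srsf1, the founding SR protein, had 2735 and 3164 in GM against 1102 and 1616 in 3d DM (1.14, SE 0.42, limma adjusted p = 0.0389). In each of these genes both GM values were above both 3d DM values. With median-of-ratios rescaling, Srsf9 and Srsf1 remained called, and the adjusted p was 0.0576 for Srsf2 and 0.0984 for Srsf7. Exons of 12 members overlap those of another gene, in Srsf2 those of Mettl23 and Mfsd11 on the other strand, and whether the authors counted reads by strand is not given in the sources used here.

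Other Srsf genes did not pass the threshold. Srsf3, among the shortest SR proteins, had 2701 and 3381 in GM against 1264 and 1864 in 3d DM (log2 fold change 0.98, SE 0.41, limma adjusted p = 0.0909). Srsf10, which represses splicing when it loses its phosphates, had a log2 fold change of 0.98 too (SE 0.43, limma adjusted p = 0.108). Srsf4, Srsf6 and Srsf11 lay at 0.76, 0.53 and 0.49. Srsf5 stood apart from them, with values of 1819 and 1512 in GM against 1253 and 1779 in 3d DM that overlapped (0.15, SE 0.42, limma adjusted p = 0.886), and its estimate became -0.05 with median-of-ratios rescaling. The groups overlapped in Srsf5 and Srsf6 and in no other tested Srsf gene.

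Among the Hnrnp genes, 8 of 21 were called higher in GM, with a median log2 fold change of 0.96. Hnrnpa1, which silences exons and is among the most abundant nuclear proteins, had 8829 and 8930 in GM against 2564 and 3842 in 3d DM. This is 8880 ± 71.8 against 3203 ± 904 (SD, n = 2), a 2.77-fold difference (log2 fold change 1.50, SE 0.41, limma adjusted p = 0.00224). Hnrnpd encodes AUF1, which binds AU-rich elements and governs mRNA decay. It had 2313 and 2373 in GM against 704 and 1083 in 3d DM, a 2.62-fold difference (1.42, SE 0.42, limma adjusted p = 0.00641). Hnrnpa1 and Hnrnpd both showed far closer GM replicates than 3d DM replicates. The order of the 3d DM replicates was not particular to them. Replicate 1 had the lower 3d DM value in all 21 Hnrnp genes and in 93.7% of all tested genes.

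Hnrnpab, a binder of AU-rich RNA and of DNA, had 8287 and 9498 in GM against 3005 and 4598 in 3d DM (log2 fold change 1.25, SE 0.40, limma adjusted p = 0.0148). Hnrnpa3, a relative of Hnrnpa1, had 4458 and 4210 in GM against 1527 and 2238 in 3d DM (1.23, SE 0.41, limma adjusted p = 0.0205). Both had GM values above both 3d DM values. The exons of Hnrnpab overlap those of Phykpl on the other strand. Hnrnph1 and Hnrnpf encode proteins that bind runs of G. Hnrnph1 had 3369 and 3956 in GM against 1274 and 2040 in 3d DM (1.18, SE 0.41, limma adjusted p = 0.0292). Hnrnpf had 5735 and 4856 in GM against 2037 and 2810 in 3d DM (1.14, SE 0.41, limma adjusted p = 0.0342). These relatives thus differed by nearly the same amount.

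Hnrnpm, a splicing regulator that binds GU-rich RNA, had 3490 and 3577 in GM against 1197 and 2063 in 3d DM (log2 fold change 1.17, SE 0.41, limma adjusted p = 0.0314). Its exons overlap those of March2 on the same strand, so reads there cannot be assigned to either gene alone. Hnrnpu, which ties RNA to chromatin and the nuclear scaffold, had 6686 and 7923 in GM against 2685 and 4299 in 3d DM (1.10, SE 0.41, limma adjusted p = 0.0418). Both had GM values above both 3d DM values. All 8 called Hnrnp genes stayed called with median-of-ratios rescaling, with log2 fold changes from 0.89 for Hnrnpu to 1.29 for Hnrnpa1.

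The other Hnrnp genes spread from no difference up to 1.20. Hnrnpa2b1 had 7044 and 7755 in GM against 2781 and 5342 in 3d DM (log2 fold change 0.94, SE 0.41, limma adjusted p = 0.0982). Hnrnpll, a regulator of alternative exons in lymphocytes, had 738 and 919 in GM against 312 and 561 in 3d DM (0.97, SE 0.44, limma adjusted p = 0.121). Both again had groups that did not overlap. The log2 fold change was 0.96 for Hnrnpa0, 0.84 for Hnrnpc, 0.68 for Hnrnpul1, 0.64 for Hnrnpul2, 0.63 for Hnrnpr, 0.56 for Hnrnpl, 0.55 for Hnrnpk and 0.48 for Hnrnpdl, each with GM values above both 3d DM values. Hnrnpa1l2-ps2, a pseudogene copy of Hnrnpa1, had 50.1 and 113 in GM against 21.3 and 48.6 in 3d DM (1.20, SE 0.57, limma adjusted p = 0.149), and reads may have been split between it and its parent.

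Hnrnph2 and Hnrnph3 did not show the difference found in their relatives Hnrnph1 and Hnrnpf. Hnrnph2 had 1432 and 949 in GM against 883 and 1375 in 3d DM, so that each state held a high and a low library (log2 fold change 0.08, SE 0.43, limma adjusted p = 0.94). Hnrnph3 had 48.3 and 54.2 in GM against 48.4 and 54.5 in 3d DM (-0.01, SE 0.57, limma adjusted p = 0.996), and its exons overlap those of Rufy2 on the other strand. These values lay far below those of Hnrnph1 and Hnrnpf and not far above the filter minimum of 25.1. No member had a higher SE, so Hnrnph3 is a weak comparison. Hnrnph2 became -0.12 and Hnrnph3 -0.21 with median-of-ratios rescaling, and neither was called. The difference between these genes and Hnrnph1 or Hnrnpf was not tested.

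**Figure D2:**
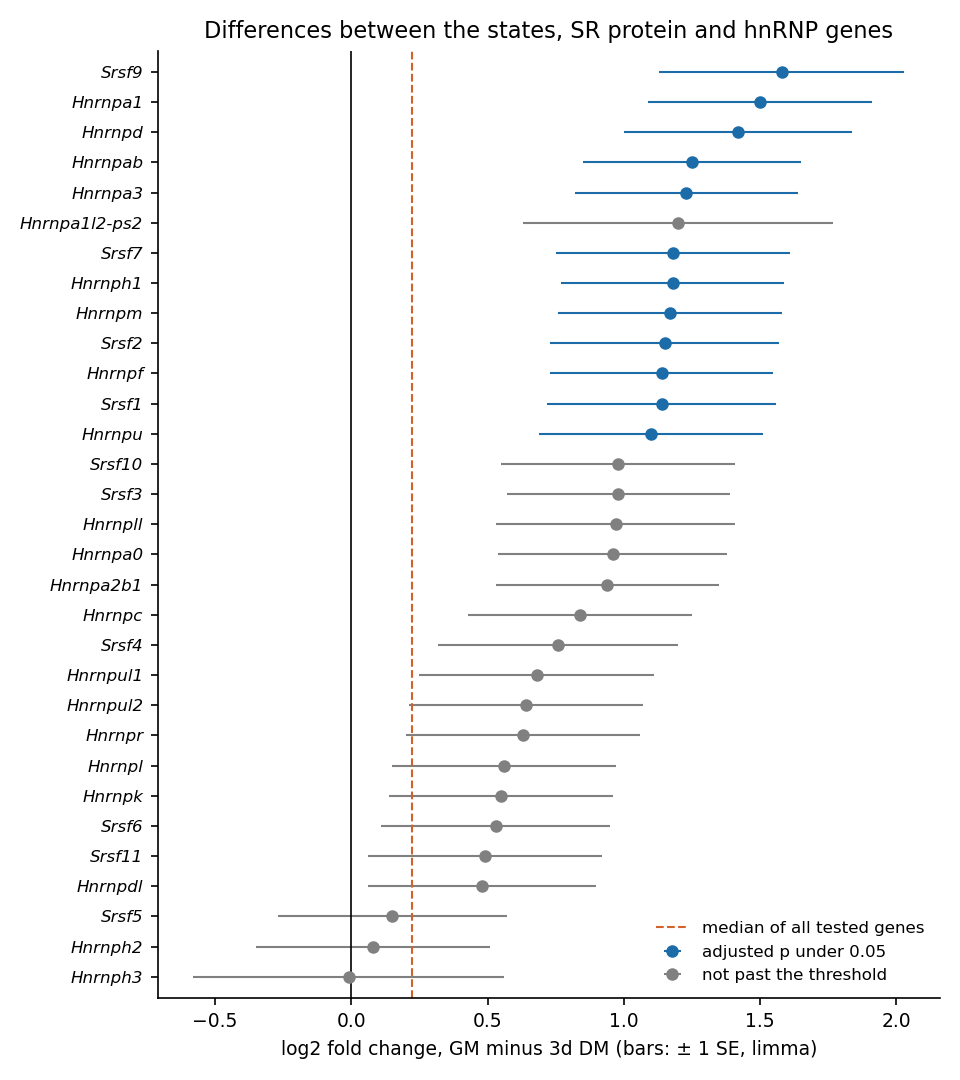
Log2 fold change of GM over 3d DM (x axis) with its limma standard error for each of the 31 tested members, in blue where the adjusted p was under 0.05. The dashed line marks the median of all tested genes, 0.22, and 28 members lie to its right.

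Levels were also compared per kb of transcript, as the mean of the 4 values divided by the median length of the gene's protein-coding transcripts. The highest levels per kb among the Hnrnp genes were 3479 for Hnrnpa2b1, 3478 for Hnrnpa1 and 3153 for Hnrnpab, whose single values overlapped widely. Among the Srsf genes they were 1269 for Srsf2, 1062 for Srsf5 and 879 for Srsf3, again with overlapping values. Hnrnph3 had 23.7 per kb, the lowest of the tested members. Summed values of the Srsf genes were 16013 and 19407 in GM against 7726 and 12183 in 3d DM, 1.78 times higher in GM, and those of the Hnrnp genes were 70904 and 74585 in GM against 28810 and 45064 in 3d DM, 1.97 times higher. Both sums were higher in each GM library than in either 3d DM library. The difference between the families was not tested.

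Other genes of the splicing machinery were read from the same fit in 4 lists. Their counts stand beside the 9.96% of all tested genes called higher and the 7.01% called lower. With median-of-ratios rescaling these were 11.8% higher and 1377 of 11406 lower. No list was tested against the members. Of 24 hnRNP proteins that carry other symbols, 3 were called higher in GM and 0 lower, with a median log2 fold change of 0.87, and with that rescaling 9 were called higher and 1 lower. Ptbp1, the polypyrimidine tract binding protein that represses muscle and neuronal exons, had 2374 and 3746 in GM against 751 and 1154 in 3d DM (1.68, SE 0.42, limma adjusted p = 0.000733). Taf15, an RNA-binding protein, and Ptbp3, a relative of Ptbp1, had log2 fold changes of 1.17 and 1.16. Of 32 tested genes of the core spliceosome, 3 were called higher and 0 lower, with a median of 0.81, namely Snrpa1 (1.49), Snrpd1 (1.47) and Snrpa (1.26), which encode proteins of the U2, common Sm and U1 particles. With median-of-ratios rescaling, 10 of the 32 were called higher and 0 lower, where the SR protein and hnRNP genes had 10 of 31. Of 25 SR-related and branch point factors, 0 were called by limma in either direction, 5 had an unadjusted p under 0.05, and the median was 0.57. With median-of-ratios rescaling, 2 of these 25 were called higher.

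Genes for kinases, a phosphatase and an importin that act on SR proteins formed the fourth list. Their median log2 fold change over 11 genes was 0.15, below the median of all tested genes, and 0 were called higher, while with median-of-ratios rescaling 1 was called higher and 2 lower. Srpk3, a muscle-specific SR protein kinase, was called lower in GM, with 13.8 and 3.02 in GM against 255 and 344 in 3d DM (log2 fold change -5.27, SE 0.58, limma adjusted p = 6.9e-18). Both GM values were under the filter minimum of 25.1. Srpk3 was thus tested only through its 3d DM values, and the size of its change rests on low GM values. Its relative Srpk1 had 716 and 884 in GM against 365 and 493 in 3d DM (0.91, SE 0.44, limma adjusted p = 0.162). Srpk2 and Clk1 to Clk4 had estimates between -0.23 and 0.16, the kinases Dyrk1a and Prpf4b -0.57 and 0.47, and the importin Tnpo3 0.47, and none of these passed the threshold with limma. The phosphatase Ppm1g had 1557 and 1525 in GM against 647 and 882 in 3d DM, groups that did not overlap (1.03, SE 0.43, limma adjusted p = 0.0807). Apart from Srpk3, the genes of this list are named here outside the rule for named genes, after their values were seen.

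**Figure D3:**
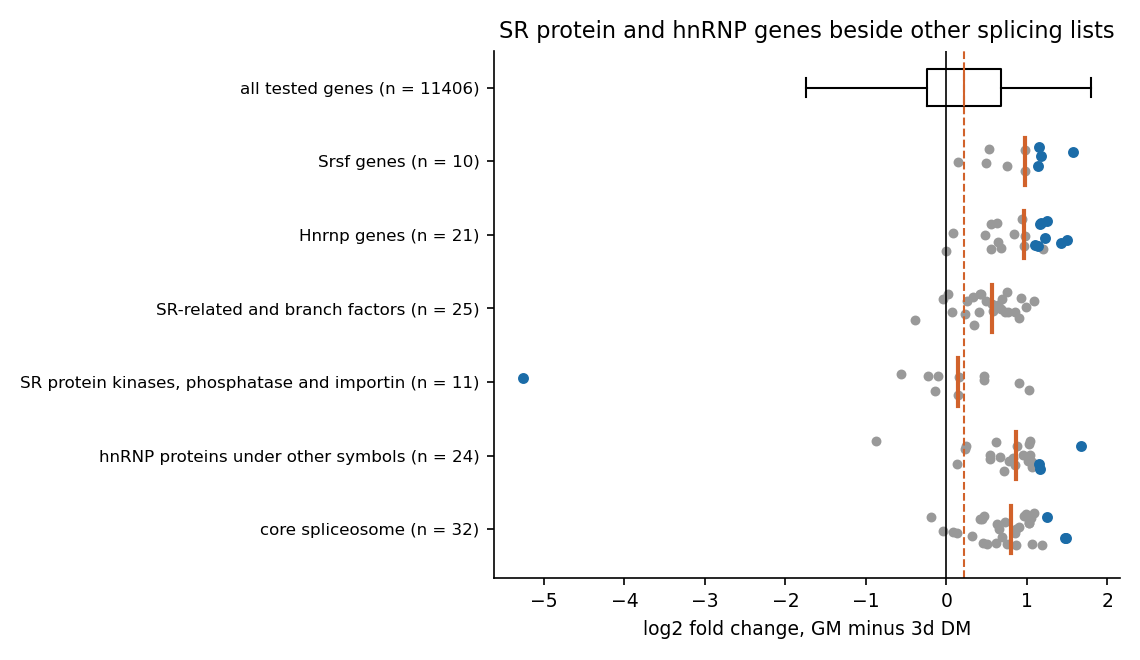
Log2 fold change of GM over 3d DM (x axis) for the Srsf and Hnrnp genes and the 4 other splicing lists, 1 point per tested gene, blue where called, with an orange bar at the median of each list. The box spans the quartiles of all tested genes and its whiskers the 5th and 95th percentiles. The medians run from 0.98 for the Srsf genes down to 0.15 for the kinase list, where Srpk3 stands at -5.27.

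The transcripts of most members carried m6A peaks. Peaks had been called by the authors in each IP library against its own input with exomePeak, and each peak has a fold enrichment, the ratio of IP over input RNA. Peak lists held 25 of the 32 members in all 4 libraries, where 42.0% of all tested genes, and 64.0% of those with a mean value of at least 500, had a peak in all 4. The count stayed at 25 with P values of at most 1e-05 and when the same region had to be called in all 4 lists. It fell to 8 when each peak needed a fold of at least 4. The shares of all genes under these stricter settings were not taken. Leaving out 1 list cannot lower the count, and it remained 25. No member had a peak in both lists of a state and in neither of the other.

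Some members had no peak. Srsf2, Srsf3, Srsf7 and Srsf12 had no peak in any list and neither had Hnrnpll and Hnrnpa1l2-ps2, and Srsf9 had 1 peak of 61 nt with a fold of 2.02 in GM replicate 2 alone. Of these, Srsf12 was listed at 0 in the input and Hnrnpa1l2-ps2 is a pseudogene. Srsf2, Srsf3, Srsf7 and Hnrnpll were expressed at means of at least 500, so 4 of the 29 members at that level (13.8%) had no peak in any list, a share near the 13.2% of all 3673 tested genes at that level. Their transcripts hold DRACH matches, and the GGACT of Srsf7 shown above lies across the end of its coding sequence. Such a GGACT, with its A within 3 nt of the last coding base, was found in 167 tested genes, of which 46.7% had a peak in all 4 lists and 23.4% in none. Among the 48 of them with a mean value of at least 500, 16.7% had none. A peak that was not called may lie under what the depth of these libraries can show.

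**Figure D4:**
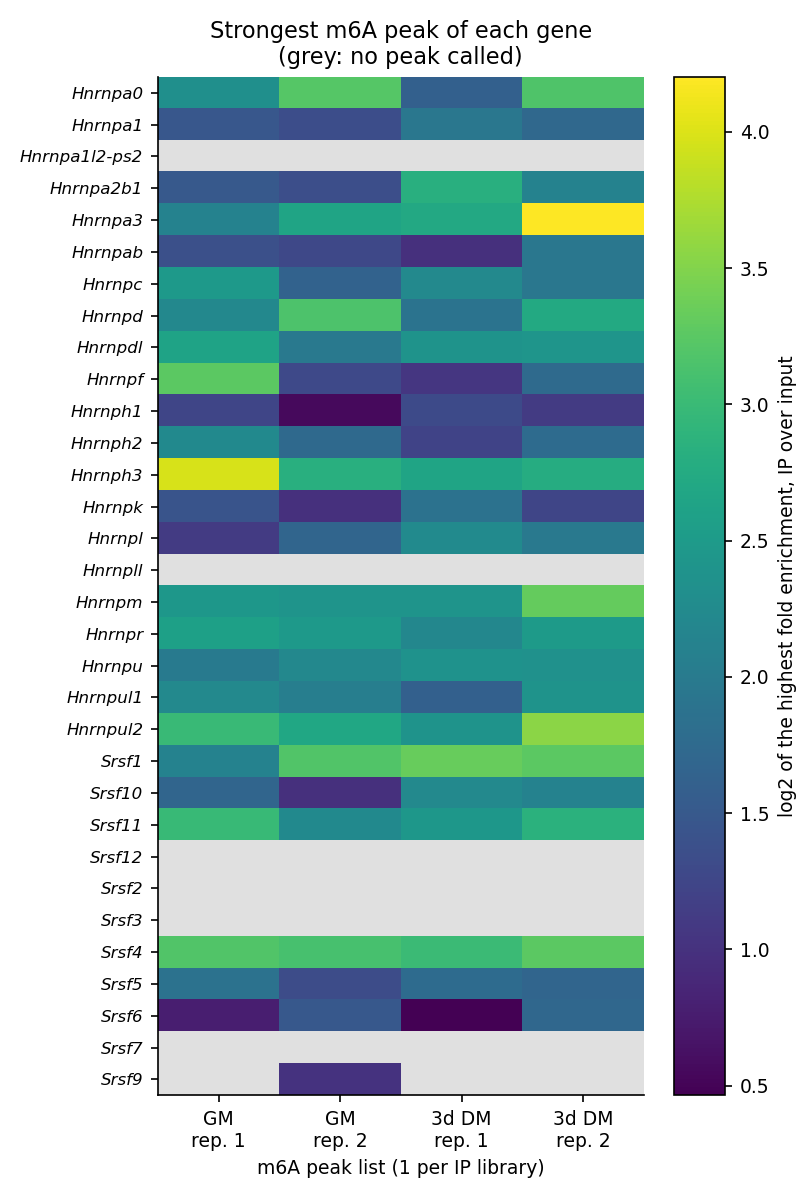
Highest fold enrichment of any peak of each of the 32 genes (rows) in the 4 peak lists (columns), on a log2 colour scale, grey where no peak was called. In 25 genes all 4 lists hold a peak, and the grey rows are 4 Srsf and 2 Hnrnp genes, besides Srsf9 with a peak in 1 list.

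Lines of the 4 lists that shared at least 1 bp on the same strand were merged into regions, which gave 52 regions on the 26 genes with any peak, 1 each on 10 genes and up to 5 on Hnrnpul1. Of these, 33 were called in all 4 lists. The place given for a region is that of its line with the highest fold, and the merged region may reach further. The strongest, by the mean fold over the lists, lay on Hnrnph3 (chr10:63016533-63023835, minus strand), with folds of 15.7 and 7.04 in GM against 6.27 and 6.89 in 3d DM, a mean of 8.98. Its line with the highest fold touched the 5′ UTR, coding sequence and 3′ UTR of the transcript given for that line. The region of Hnrnpa3 (chr2:75661744-75665583, plus strand, coding sequence) followed with 4.33 and 6.26 in GM against 6.56 and 18.4 in 3d DM, a mean of 8.89. That of Srsf4 (chr4:131892189-131901706, plus strand, coding sequence and 3′ UTR) had 9.14 and 8.67 in GM against 8.04 and 9.62 in 3d DM, a mean of 8.87. Srsf4, among the largest SR proteins, was thus the most even of the 3 across libraries, while GM replicate 1 stood out for Hnrnph3 and 3d DM replicate 2 for Hnrnpa3. Hnrnph3 had the strongest region and the lowest expression per kb among the tested members. A second region of Hnrnph3 (chr10:63015465-63016512) lies downstream of the strongest one and also touched coding sequence and 3′ UTR.

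No region differed between the states past the threshold. limma on the log2 fold of the 5976 regions called in all 4 lists called 0 of them (0% of all, with an unadjusted p under 0.05 for 213 of the 5976), and so 0 of the 33 of the SR protein and hnRNP genes, of which 2 had an unadjusted p under 0.05. Their lowest adjusted p was 0.994. The median difference in log2 fold, GM minus 3d DM, was -0.04 over the 33 regions and 0.11 over all regions. The mean log2 fold was higher in GM in 15 of the 33 and higher in 3d DM in 18. Standard errors lay between 0.32 and 0.59 on the log2 scale, so differences of this size could not be resolved with 2 lists against 2.

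The region of Hnrnpa2b1 (chr6:51461124-51466968, minus strand, coding sequence and 3′ UTR) had folds of 2.84 and 2.56 in GM against 7.05 and 4.35 in 3d DM (log2 difference -1.04, SE 0.42, unadjusted p = 0.0268 and limma adjusted p = 0.994). A region in the 3′ UTR of Hnrnpa0 (chr13:58125879-58126414, minus strand) had 2.01 and 1.47 in GM against 3.05 and 2.66 in 3d DM (log2 difference -0.73, SE 0.33, unadjusted p = 0.0447 and limma adjusted p = 0.994). In both, GM folds were below both 3d DM folds, an order found in 8 of the 33 regions and in 9.22% of all regions called in all 4 lists. The opposite order was found in 3 of the 33 and in 21.7% of all, and neither share was tested. Hnrnpk, which binds runs of C, had a 3′ UTR region (chr13:58391262-58391418, minus strand) called in 3d DM alone, with folds of 2.23 and 2.09. This was 1 of 19 member regions not called in all 4 lists, and both of its folds were low.

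**Figure D5:**
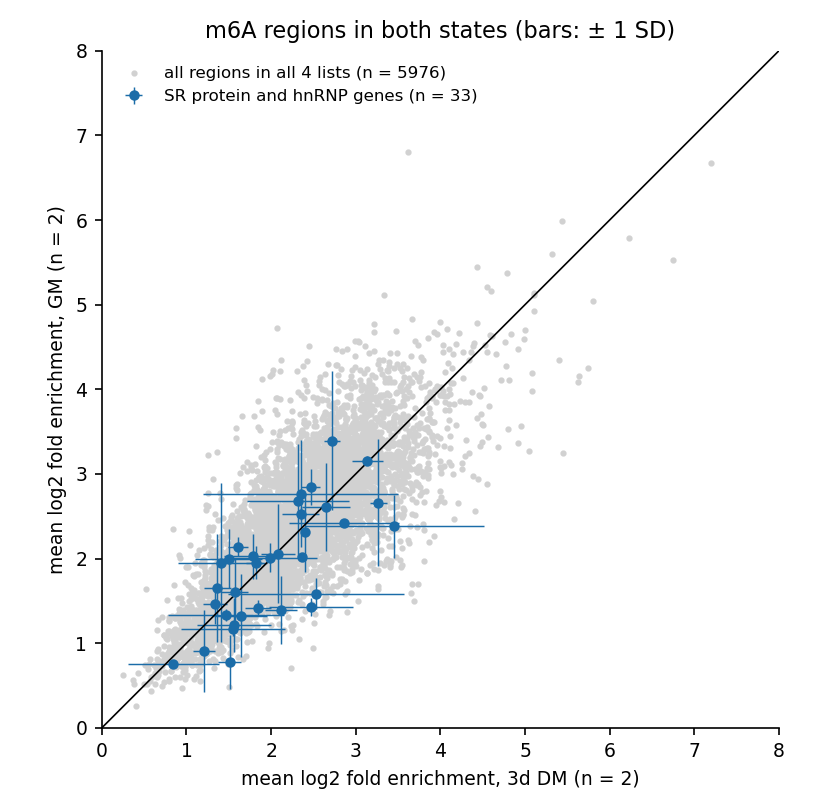
Mean log2 fold enrichment in 3d DM (x axis) and in GM (y axis) of the 5976 regions called in all 4 lists (grey) and of the 33 regions of SR protein and hnRNP genes (blue, bars of 1 SD over 2 lists). The blue points lie on both sides of the line of equal values, 15 above and 18 below it.

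Differences in expression and in m6A were set side by side for the 25 genes with peaks in all 4 lists. Of the 9 that were called higher in GM in expression, 7 had a lower mean log2 of the highest fold in GM than in 3d DM, with a median difference of -0.30. Of the 16 not called, 9 had a lower value in GM, with a median of -0.03. Across the 25 genes Pearson's r of the m6A difference and the expression difference was -0.33 and Spearman's rho -0.35, given as a description, since the fold divides by the same input libraries that give the expression value. Hnrnpa1, with a log2 fold change of 1.50 in expression, had folds of 2.80 and 2.54 in GM against 3.86 and 3.32 in 3d DM (log2 difference -0.42, SE 0.37, limma adjusted p = 0.994). Hnrnpd, at 1.42 in expression, went the other way, with folds of 4.63 and 8.9 in GM against 3.7 and 6.68 in 3d DM (log2 difference 0.37, SE 0.52, limma adjusted p = 0.994). Hnrnpf also had the higher mean in GM. The same counts and correlations were not taken over all genes.

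The regions of the SR protein and hnRNP genes were long, and their strongest lines touched the 5′ UTR more often than those of regions overall did. All places in this paragraph are those of the line with the highest fold, not of the whole merged region. The 33 called in all 4 lists had a median of 815 nt, against 659 nt for all regions called in all 4. The strongest line touched the 5′ UTR in 18.2% of them and in 5.61% of all such regions. Among regions of at least 500 nt, the 5′ UTR was touched by 6 of 29 (20.7%) against 6.15% of 4177. Examples are the regions of Hnrnpd, Hnrnph3, Srsf1 and Srsf5. Over all 52 regions, 76.9% touched the coding sequence and 63.5% the 3′ UTR, against 63.0% and 53.4% of all regions. In 11 of 41 regions placed on a transcript (26.8%), the strongest line had its centre no more than 200 nt from where the coding sequence ends. This was so in 23.5% of all. Their enrichment was modest, with median folds of 4.31 and 3.36 in GM against 3.70 and 3.95 in 3d DM, against 5.44 and 4.83 and then 4.50 and 5.01 for all regions called in all 4 lists.

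GGACT was counted on both strands of these regions. On the transcript strand it occurred 0.66 times per kb of peak, against 1.31 over the regions of all genes, and AGTCC, its reverse complement, 0.75 against 0.98 times. DRACH, which includes GGACT, occurred 17.6 times per kb against 22.5. In windows of 100 nt at the centre of the longest block of the strongest line, GGACT was found in 2 of 43 (4.7%), against 14.1% of all windows, and AGTCC in 9.3% against 8.6%. Of the 52 regions, 16 held a GGACT and 51 a DRACH. Whole transcripts of all tested genes held 1.08 GGACT per kb, with 1.09 in those with a peak in all 4 lists and 1.07 in those with none. Transcripts of the 25 members with peaks in all 4 lists held 0.67 per kb. Those of the 5 annotated members without a peak, among them Srsf12 at 0 in the input, held 0.54. Single members departed from this, with 2.58 per kb in Srsf9, which had a peak in 1 list, and 1.25 in Srsf7, which had none. Hnrnpa2b1, Hnrnpab and Srsf5 have no GGACT in their longest transcript, although each had a peak in all 4 lists. These shares were not tested, since regions of a gene and genes of a family share sequence.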

How the data were processed

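RNA-seq (input) and MeRIP-seq (IP) values of C2C12 cells, 2 libraries of each kind in GM and in 3d DM, were grouped by the deposit's labels. Per the submitters' processing notes and the study's methods, reads were aligned to mm10 with HISAT2 2.1.0. The expression table deposited by the authors holds a normalized signal per gene, made with edgeR, and its counting tool and strand setting are not given in the sources used here. The peak lists deposited by the authors, made with exomePeak for each IP library against its own input, hold a fold, the ratio of IP over input, and a p-value per peak. Neither holds read numbers, so the depth is unknown, no counting error is given, and the equal column totals are no depth. Low values recur as in pseudo-counts, so the replicate spread may be altered.

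Of 27179 entries, 93.0% received a symbol through their Entrez identifier. Genes with a value of at least 25.1 (2 cpm of the column total) in at least 2 libraries were tested, 11406 in all. limma 3.58.1 (R 4.3.3) was used on log2(value + 1) and on the log2 of the highest fold per merged region, with eBayes' intensity trend, adjusted after Benjamini and Hochberg, and fold changes of low genes are understated on this scale. An exact permutation of 2 libraries against 2 cannot go below p = 0.333 and was not used. The limma steps were tested on simulated data with independent noise and no shift between libraries. The planted changes were larger than any difference of a member, so detection at the members' sizes was not tested. Positions in the lists count from 0 and are printed from 1. Places and transcripts are from GENCODE M21 and sequences from the RefSeq copy of GRCm38, in which 110 of 110 member transcripts with a peak matched GENCODE. Protein sequences were not used here. The sequence window of 1 region is not reported here. Python 3.11.15, pandas 2.3.3, numpy 2.4.6, pysam 0.24.0 and matplotlib 3.10.9 were used.

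The members, the gene lists and the tests were chosen with earlier results of these data known. Values per library are given for members with an adjusted p under 0.05, the 3 with the largest log2 fold change in each direction, the 3 with the highest level per kb in each family and members with no peak, for m6A regions with the 3 highest mean folds, and for up to 3 called genes per other list and direction. The alternatives were other filters, pseudocounts of 0.1 and 4, 2 rescalings, a replicate block, limma without the trend, stricter peaks, other merging and each library left out. Totals without the largest entry were added after seeing the data.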

Additional observations from a re-analysis of the deposited data

How the results depend on the processing

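The median over the SR protein and hnRNP genes was above 0 under every alternative run, and so was its excess over all tested genes, which was 0.49 at the lowest (without GM replicate 2). The number of members called, 12, was 11 with each other filter, 12 with either pseudocount, 10 with either rescaling and 14 with totals without the largest entry. It was 4 without the trend. With a library left out, it was 9 without 3d DM replicate 2 and 0 in every other such fit. A state then held a single library, so these counts cannot show how stable the calls are. The median in these fits ranged from 0.62 to 1.37 on the log2 scale. With the replicate block, the number of members called was 2 (Srsf9 and Hnrnpa1). Of all tested genes, 9.96% were called higher and 7.01% lower in the main fit. With median-of-ratios rescaling, 11.8% were called higher and 1377 of the 11406 lower. The shares under the other alternatives, without the trend and with the block included, were not taken. Same-numbered input libraries deviated together (r = 0.29), but 2 pairs do not settle whether the numbers pair the samples. In the other splicing lists, 22 genes instead of 6 were called higher in GM and 3 instead of 1 lower with median-of-ratios rescaling. Members with a peak in all 4 lists numbered 8 when a fold of at least 4 was required, and 25 under the other alternatives. Among these, leaving out a list could not have lowered the count. The count of m6A regions called was 0 under each alternative, the replicate block included. Of the members named in expression, 3 changed direction: Hnrnph2 was -0.12 with either rescaling, -0.02 with totals without the largest entry and -0.24 to 0.40 with a library left out, Srsf5 was -0.05 with either rescaling and -0.10 to 0.40 with a library left out, and Hnrnph3 was -0.09 to 0.08 with a library left out. The cause was not tested for any of these changes, other than that fewer libraries were used. With 2 libraries a state and no read numbers, single members near the threshold could not be resolved.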
